A study of Mus musculus with 9 samples.

Results

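The baseline transcriptome of bone marrow LSK cells from control mice was described in 3 of the 9 samples of the series, the libraries of the mice labelled rtTA. They were chosen by that label and by no measured value. LSK cells are the marrow fraction that is lineage-negative, Sca1-positive and cKit-positive, and each library came from 1 mouse. The series also holds mice with an H3K9M or H3K36M histone gene in the Col1a1 locus, whose libraries were not analysed here. The control mice carried rtTA, the doxycycline-dependent transcriptional activator, in the Rosa26 locus on a B6/129 background, and their labels list no histone transgene. They were 6 to 8 weeks old, and their drinking water held doxycycline (2 mg/ml) and sucrose (10 mg/ml), as for all mice of the series. Their profile is therefore that of doxycycline-treated rtTA marrow, not of untreated wild-type marrow. Before the sort, red cells were lysed, and cells bearing Mac1, Gr1, B220, CD3e or Ter119 were gated away.

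The LSK gate holds the blood stem cells together with multipotent progenitors. Stem cells keep themselves through a set of transcription factors that act together on shared enhancers, among them the products of Runx1, Gata2, Tal1, Lmo2 and Erg. Progenitors begin to transcribe genes of single lineages before they lose the capacity for others, which is known as lineage priming. In bulk RNA, fewer cells of a type and less RNA per cell cannot be told apart.

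Levels are RPKM, reads scaled to transcript length and to the mapped reads of the library, so genes can be compared per length. Of 37882 genes, 14668 were at 0 in all 3 libraries and 12660 had a mean of at least 1 RPKM, of which 11015 code for proteins. At a mean of at least 10 RPKM there were 5769 genes, and at 100 RPKM or more 595. Depth, read from the steps between low values, was about 16580000, 33790000 and 24970000 reads in libraries 1, 2 and 3. Spread is given as the SD over the 3 mice (n = 3), as the coefficient of variation (CV, SD as a percentage of the mean) and as the ratio of the highest to the lowest library. A range of at least 2-fold, wherever genes are counted by it, is taken on the log2(RPKM + 0.5) scale, so low genes can pass 2 in the plain ratio and not be counted. A library is said to stand apart for a gene where it is at least 2-fold above both others on that scale. Over the 12660 genes, library 1 stood apart for 3.41%, library 2 for 1.56% and library 3 for 1.41%, and 13.4% had a range of at least 2-fold. That range was seen in 7.84% of expressed coding genes and 4.69% of coding genes at a mean of at least 10 RPKM. Lists of well expressed coding genes are best read beside the lower shares. Libraries 1, 2 and 3 were the highest for 32.6%, 34.6% and 32.7% of these genes, and counts of members highest in a library stand against these shares. All gene lists were chosen with earlier results of these data known, so every count over a list describes these libraries and is not support. With 1 group there was no second condition to test against, so no p-value is given.

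The libraries differed in 3 ways that touch the results below, and each is described with its genes. Library 1 held more keratinocyte transcripts and more small structural RNA, library 3 more transcripts of mature neutrophil genes and antibody genes, and library 2 more of splicing regulators. Each statement on a stem cell gene is given with its value in every library, so that its level without any 1 of them can be read.

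The genes of the sort were all present. Kit, the receptor for stem cell factor (chr5:75574916-75656722, plus strand, mm10), stood at 88.1, 95.5 and 102 RPKM in libraries 1 to 3. Its mean of 95.4 ± 7.17 RPKM (SD, n = 3) had a ratio of highest to lowest library of 1.16, and it ranked 622 of all genes. Cd34, a sialomucin of stem and progenitor cells, was at 389, 320.5 and 399 RPKM. It was the highest of the 6 marker genes, with a mean of 369 ± 42.7 RPKM. Flt3, the cytokine receptor that marks multipotent progenitors within the gate, was at 64.2, 51.6 and 68.7 RPKM. All 3 genes varied by less than 1.4-fold between mice.

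A pair of markers of the most primitive cells were lower. Procr, the endothelial protein C receptor, was at 19.8, 15.0 and 11.3 RPKM, with a ratio of highest to lowest of 1.75. Mecom, which encodes a zinc finger factor needed for stem cell maintenance, was at 2.53, 2.92 and 2.76 RPKM. Its rank of 10298 put it near the bottom of the genes at 1 RPKM or more, but its SD of 0.196 RPKM over the 3 mice was small. Slamf1, which encodes the stem cell antigen CD150, was at 0.884, 0.975 and 0.993 RPKM, just under the minimum of 1.

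Ly6a encodes Sca1, the remaining antigen of the gate (chr15:74994877-74998031, minus strand). It was at 292, 125 and 120 RPKM. Library 1 stood apart by 2.34-fold from the next library, while the other pair differed by less than 5%. No other of the 6 markers had a range of 2-fold or more. Without library 1, the mean of Ly6a was 122 RPKM in place of 179. The keratinocyte genes described below moved between the libraries by similar ratios.

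**Figure D1:**
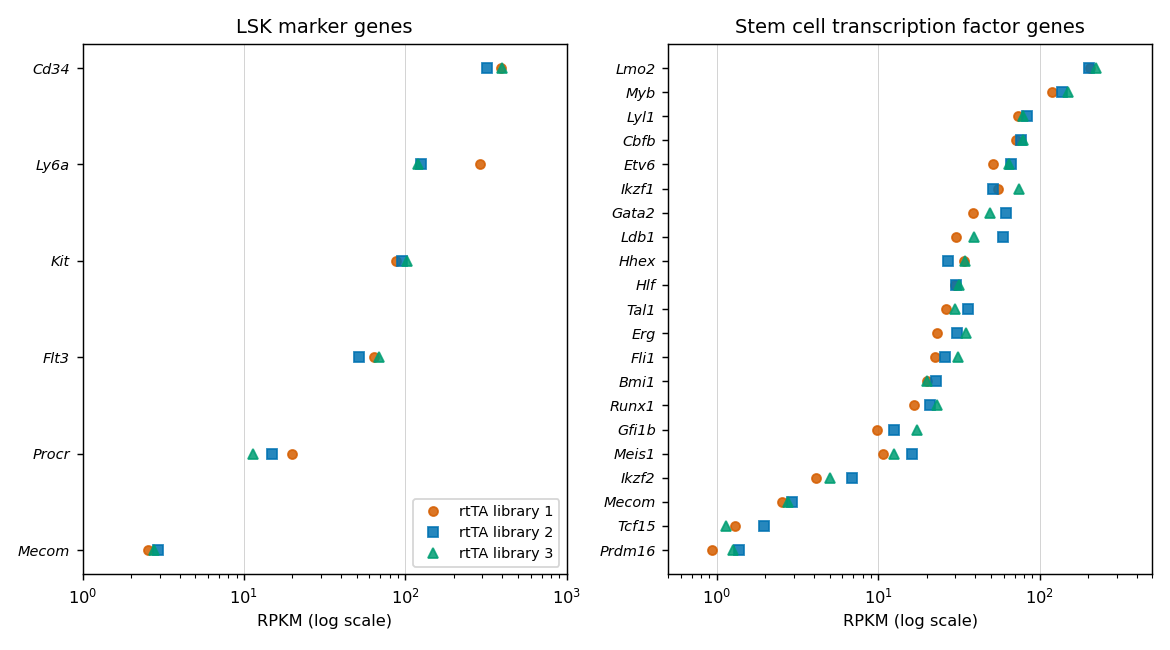
RPKM on a log scale in each of the 3 rtTA libraries for the 6 LSK marker genes (left) and 21 of the 22 stem cell transcription factor genes (right). Points of 1 gene lie close together, except Ly6a, where library 1 is at 292 RPKM and the others at 125 and 120.

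The transcription factors of stem cells were present as a complete set. All 22 genes of that list had a mean of at least 1 RPKM, and 17 reached 10. None had a range of 2-fold, against 13.4% of expressed genes and 4.69% of coding genes at a mean of at least 10 RPKM. Lmo2, the bridging component of the GATA and SCL complex, led with 204, 202 and 222 RPKM. Myb, which is required for definitive blood formation, followed with 120, 138 and 150 RPKM. Lyl1, a basic helix-loop-helix factor and partner of Lmo2, was at 73.6, 83.3 and 78.6 RPKM. Cbfb, the common subunit of the RUNX factors, was at 71.3, 76.5 and 78.6 RPKM.

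Factors that act at the head of this network were at moderate levels. Gata2 was at 38.4, 62.0 and 49.3 RPKM. Tal1, which encodes SCL, was at 26.3, 35.96 and 29.7 RPKM, and Erg at 23.3, 30.9 and 35.0 RPKM. Runx1 was at 16.7, 20.9 and 23.3 RPKM, lower than its partner Cbfb in every library. Hlf, a factor enriched in stem cells, had one of the tightest values of the list, at 30.1, 30.2 and 31.8 RPKM. The lowest members were Tcf15 at 1.29, 1.96 and 1.14 RPKM and Prdm16 at 0.934, 1.38 and 1.25 RPKM.

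Library 1 was the lowest of the 3 for 18 of the 22 factors, against 45.6% of all expressed genes. The median ratio of library 1 to library 2 over the list was 0.796. Over all expressed genes this ratio depended on transcript length: the median log2 difference was 0.38 for the sixth of genes with the shortest exons and -0.28 for the longest sixth. The part of length in the lower values of the factors was not tested.

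The Hox genes, homeobox factors that set stem cell self-renewal in blood, were expressed from a pair of the 4 clusters. Of 38 measured members, 8 had a mean of at least 1 RPKM: 5 of 11 in the Hoxa cluster, 3 of 10 in Hoxb, 0 of 9 in Hoxc and 0 of 8 in Hoxd. Hoxa9, whose product partners with MEIS1, was the highest at 10.8, 18.0 and 12.9 RPKM. Hoxa7 was at 8.396, 7.53 and 7.83 RPKM, Hoxa5 at 6.68, 8.41 and 4.37, Hoxa10 at 2.35, 3.47 and 2.24 and Hoxa3 at 0.996, 1.66 and 1.53. From the Hoxb cluster, Hoxb3 was at 1.39, 2.27 and 2.20 RPKM and Hoxb4, which expands stem cells when overexpressed, at 1.33, 2.69 and 1.35 RPKM. Hoxb7 passed only through library 1, at 2.11 RPKM against 0.422 and 0.545.

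The other 30 Hox genes had a mean below 1 RPKM, and 11 were at 0 in all 3 libraries. Not all were near 0, since the median of the 11 Hoxa genes was 0.4475, 1.588 and 0.759 RPKM in libraries 1 to 3. In the Hoxd cluster 6 of 8 were listed at 0 in all 3 libraries, and the cluster's summed level was 0.0276, 0.0542 and 0.00715 RPKM. The cofactor gene Meis1, at 10.6, 16.1 and 12.6 RPKM, was higher than all Hox genes other than Hoxa9.

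Among 21 surface genes of stem and multipotent cells, 20 reached a mean of 1 RPKM. Angpt1, an angiopoietin that signals through the TIE2 receptor, was at 90.5, 111 and 117 RPKM. Its receptor gene Tek was at 2.75, 3.07 and 3.36 RPKM, and Tie1 at 13.4, 19.0 and 16.2 RPKM. Cd48, an antigen of committed multipotent cells, was at 81.7, 61.2 and 73.5 RPKM, and Cd27 at 57.1, 51.5 and 52.7 RPKM. These exceeded Slamf1 by a wide margin in every library. Cd9, a tetraspanin of stem cells and megakaryocytes, was at 159, 81.2 and 82.7 RPKM and thus also high in library 1.

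All 23 cytokine receptor genes were at 1 RPKM or more, and Csf1r and Csf2rb2 were the members with the widest ranges. Csf3r, the receptor for G-CSF, was at 22.0, 36.9 and 33.4 RPKM, and Il3ra at 24.3, 22.4 and 20.3 RPKM. Lineage-restricted receptors were lower: the erythropoietin receptor gene Epor was at 3.27, 4.04 and 3.36 RPKM and Il7r, for interleukin 7, at 2.92, 3.43 and 3.47 RPKM. Csf1r, the macrophage growth factor receptor, was at 9.26, 4.29 and 10.7 RPKM, a ratio of highest to lowest of 2.496.

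All 11 genes of marrow retention and adhesion had a mean of at least 1 RPKM. Itgb1, the integrin beta 1 chain, was at 79.7, 62.7 and 75.2 RPKM. Cxcr4, the receptor for the niche chemokine CXCL12, was at 44.4, 62.6 and 40.2 RPKM. Cxcl12 itself, made by stromal cells, was at 0.152, 0.384 and 0.423 RPKM. Itgb2, the beta chain of the leukocyte integrins, was the member of the 11 for which a library stood apart, at 15.5, 14.8 and 37.1 RPKM with library 3 highest.

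Genes of the cell cycle were expressed in every library. All 16 DNA replication genes and all 17 mitosis genes had a mean of at least 1 RPKM. None of the genes on either list was counted as having a range of 2-fold on the log2(RPKM + 0.5) scale. The share was 13.4% of expressed genes but 4.69% of coding genes at a mean of at least 10 RPKM, which most of these genes reached. So few would be counted in lists of this size. Pcna, the replication clamp, was at 234, 253 and 228 RPKM and Mcm6, a helicase subunit, at 156, 178 and 190.4 RPKM. Mki67, which came nearest, was at 21.6, 43.5 and 39.3 RPKM, a plain ratio of highest to lowest of 2.01, and Top2a at 51.3, 65.5 and 62.2 RPKM.

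The G1 kinase genes were higher than the cyclins that activate them. Cdk6 was at 140.5, 166 and 167 RPKM and Cdk4 at 148, 145 and 135 RPKM. Among the D cyclins, Ccnd2 was at 43.6, 54.4 and 55.8 RPKM, Ccnd3 at 28.8, 38.2 and 31.8 RPKM and Ccnd1 at 12.1, 11.1 and 11.1 RPKM. Of the inhibitors tied to quiescence, Cdkn1b (p27) was at 11.1, 22.0 and 13.5 RPKM and Cdkn1c (p57) at 4.28, 3.48 and 3.03 RPKM. Cdkn2a, which encodes p16 and ARF, was at 3.61, 0.843 and 0.884 RPKM and stood apart in library 1.

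Genes of histone H3.3 and of the enzymes that methylate H3 at K9 and K36 varied by less than 2-fold. H3f3a and H3f3b, both of which encode H3.3, were at 256, 192 and 224 RPKM and at 271, 230 and 205.5 RPKM. The counting rule for reads shared between related copies is not given, so their split is uncertain. Of the H3K9 methyltransferases, Ehmt2 (G9a) led with 28.9, 40.1 and 33.8 RPKM and Setdb1 was at 7.80, 14.4 and 11.4 RPKM. Of the H3K36 methyltransferases, Setd2 was at 9.15, 14.7 and 15.2 RPKM and Nsd1 at 9.14, 13.3 and 13.1 RPKM. All 6 genes of each group were at 1 RPKM or more, and none had a range of 2-fold. The share was 13.4% of expressed genes but 7.84% of expressed coding genes, so few would be counted in groups of this size. All 12 were lowest in library 1, against 45.6% of expressed genes. The part of transcript length, on which the ratio of library 1 to library 2 depended, was not tested here either.

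Of 25 immediate early and heat shock genes, 24 were at 1 RPKM or more and 9 at 100 or more, a class that is known to be induced within minutes by handling or stimulation. Fos was at 468, 458 and 436 RPKM, Zfp36 at 306, 322 and 346 RPKM and Junb at 173, 202 and 192 RPKM. These 3 genes varied by less than 1.2-fold between the mice, but 6 of the 24 expressed members, or 25%, had a range of at least 2-fold, against 13.4% of expressed genes. Egr1 was at 70.0, 134 and 163 RPKM, with library 1 low, and Egr3, with the widest ratio, at 1.49, 2.42 and 7.77 RPKM. Whether the cells had these levels before the sort cannot be told from these data.

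All 13 lymphoid priming genes had a mean of at least 1 RPKM. Dntt, which encodes the terminal transferase of lymphoid progenitors, was at 227, 155 and 208 RPKM and ranked 299. Satb1, a chromatin organiser, was at 12.8, 9.72 and 14.3 RPKM. The recombinase genes were low, with Rag1 at 0.911, 2.13 and 2.08 RPKM and Rag2 at 2.00, 2.86 and 2.08 RPKM. Ly6d, a marker of B-biased lymphoid progenitors, was at 365, 128 and 136 RPKM, with library 1 apart by the ratio seen for keratinocyte genes. Its value is given with theirs below.

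Genes of committed B and T cells were mostly low. Of 15 B lineage genes, 13 had a mean of at least 1 RPKM but 2 reached 10, Ighm at 169, 139 and 252 RPKM and Cd79b at 16.8, 15.6 and 18.6 RPKM. Of the 13, 7 had a range of at least 2-fold, or 53.85%, against 13.4% of expressed genes. Pax5, the factor of B cell commitment, was at 0.999, 3.67 and 3.58 RPKM. Of 17 T and NK genes, 5 reached 1 RPKM. Nkg7, a granule protein gene of cytotoxic cells, was an exception at 91.2, 89.3 and 94.3 RPKM, while Cd3e was at 0.127, 0.0827 and 0.168 RPKM. Ptprc, whose B220 form was gated away, was at 26.0, 29.4 and 36.8 RPKM, a value that covers all forms of CD45.

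Of 14 megakaryocyte genes, 12 had a mean of at least 1 RPKM. None of these was counted as having a range of 2-fold on the log2(RPKM + 0.5) scale. The share was 13.4% of expressed genes but 7.84% of expressed coding genes, so few would be counted in a list of this size. Among low members the plain ratio did pass 2, with Ppbp at 1.84, 1.23 and 0.816 RPKM and Selp at 1.51, 0.665 and 1.54 RPKM. Pf4, platelet factor 4, was at 28.0, 52.1 and 53.3 RPKM and Itga2b (CD41) at 21.02, 29.7 and 27.0 RPKM. Members of the platelet adhesion receptor differed, with Gp9 at 15.2, 12.1 and 11.3 RPKM and Gp1ba at 1.72, 1.98 and 2.51 RPKM. Gp6, the collagen receptor, was at 0, 0.0258 and 0 RPKM.

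Of 17 erythroid genes, 12 had a mean of at least 1 RPKM. Car2 was at 360.4, 296 and 305 RPKM and Car1, also a carbonic anhydrase, at 44.2, 58.7 and 65.3 RPKM. Gata1 was at 8.16, 9.84 and 9.73 RPKM and Klf1 at 5.94, 9.63 and 8.35 RPKM. Alas2, the haem synthesis gene of late red cell precursors, was at 0.0747, 0.0855 and 0.0992 RPKM. The alpha globin genes stood apart in library 3, with Hba-a2 at 6.80, 8.72 and 24.2 RPKM and Hba-a1 at 6.40, 7.67 and 17.4 RPKM. They are near-identical copies, so their split is uncertain.

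Mast cell, basophil and eosinophil genes were partly present, with 7 of 14 at a mean of at least 1 RPKM. Cpa3, carboxypeptidase A3, was at 28.5, 31.05 and 42.4 RPKM and Mcpt8, a basophil protease, at 8.99, 7.68 and 17.4 RPKM. Library 3 stood apart for Prss34, also a basophil protease, at 0.845, 4.10 and 14.95 RPKM, and for Prg2, the major basic protein of eosinophils, at 0.796, 1.704 and 12.5 RPKM. Tpsab1, a tryptase of mature mast cells, was listed at 0. Of 7 MHC class II genes, 6 were at 10 RPKM or more. A range of at least 2-fold was seen in 3 of these, against 13.4% of expressed genes. H2-Ab1 was at 20.4, 23.9 and 28.1 RPKM, and H2-Aa, with the widest ratio, at 5.41, 9.88 and 15.4 RPKM.

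Of 16 stroma and endothelium genes, 4 had a mean of at least 1 RPKM. Pdgfrb was the highest at 15.98, 12.3 and 17.3 RPKM, and Emcn, endomucin, was at 4.71, 3.68 and 4.11 RPKM. Defining genes of these cells were near 0, with Cdh5, VE-cadherin, at 0, 0.0669 and 0.121 RPKM and Lum, lumican, listed at 0.

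All 6 primary granule genes had a mean of at least 1 RPKM and 4 reached 100. Mpo, the myeloperoxidase of primary granules, was at 365, 370.4 and 642 RPKM and ranked 145. Ctsg was at 222, 157 and 266 RPKM, Elane at 84.7, 165 and 236 RPKM and Prtn3 at 128, 106 and 138 RPKM. All 6 primary granule genes were highest in library 3, against 32.7% of expressed genes, but it stood apart for 1 of them, Fcnb at 2.17, 1.75 and 15.9 RPKM. Among 8 myeloid factor genes, all expressed, Spi1, which encodes PU.1, was at 40.7, 34.3 and 45.7 RPKM and Cebpa at 24.9, 20.2 and 34.4 RPKM. Irf8 was at 27.0, 17.4 and 44.4 RPKM, and Cebpe, needed for secondary granules, stood apart in library 3 at 3.46, 4.61 and 10.48 RPKM.

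**Figure D2:**
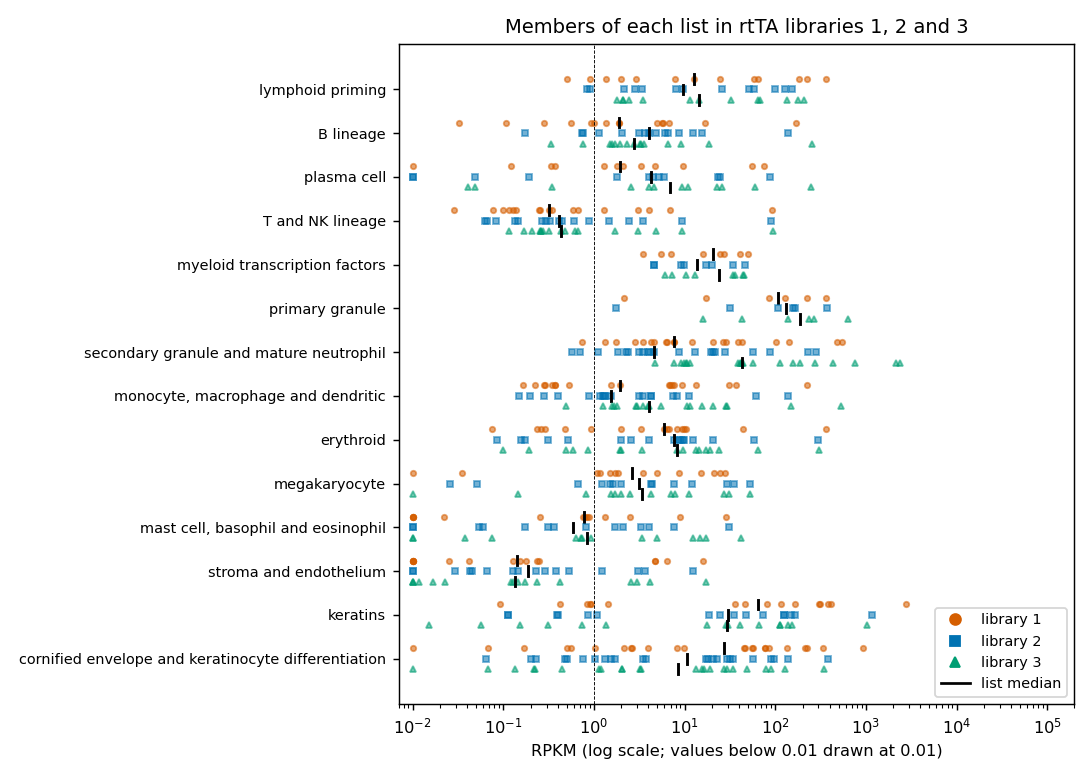
RPKM on a log scale of every member of 14 gene lists in each of the 3 rtTA libraries, with the list median as a black bar and a dashed line at 1 RPKM. The mature neutrophil list is shifted up in library 3 (median 42.6 RPKM against 7.62 and 4.61), and the keratin and cornified envelope lists in library 1.

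Library 3 held more transcripts of mature neutrophils, the cells that carry the Gr1 and Mac1 antigens gated away in the sort. All 21 measured genes of the secondary granule and mature neutrophil list were highest in library 3, which stood apart for 20 of them, against 1.41% of expressed genes. The exception, Padi4, was at 7.59, 8.62 and 9.11 RPKM. The summed level of the list was 1487, 793 and 6778 RPKM in libraries 1 to 3. S100a8, the smaller subunit of calprotectin (chr3:90668978-90670035, plus strand), was at 546, 279 and 2364 RPKM. Its partner S100a9 was at 481, 229 and 2168 RPKM.

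Granule genes showed the same order. Ngp, neutrophilic granule protein, was at 142, 88.3 and 757 RPKM. Ltf, lactoferrin, was at 42.6, 27.8 and 272 RPKM, Camp, cathelicidin, at 101, 57.0 and 432 RPKM, and Lcn2, lipocalin 2, at 20.8, 12.97 and 112 RPKM. The widest range in the list was that of Mmp9, gelatinase B, at 4.25, 2.37 and 40.8 RPKM. Over the 14 members at a mean of at least 10 RPKM, the median ratio of library 3 to library 2 was 9.06, and that of library 1 to library 2 was 1.79. Without library 3, S100a8 moved in rank from 65 to 160 and S100a9 from 76 to 191, and without library 1 S100a9 moved to 50.

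Genes of the Gr1 and Mac1 antigens moved with them. Ly6g was at 6.31, 3.98 and 42.1 RPKM and Itgam, the Mac1 alpha chain, at 7.58, 4.21 and 15.4 RPKM. Of 19 monocyte, macrophage and dendritic genes, 16 were highest in library 3, against 32.7% of expressed genes. Lyz2, lysozyme, was at 224, 138 and 534 RPKM, Ccr2, the receptor that draws monocytes from the marrow, at 6.67, 3.44 and 29.3 RPKM, and Ly6c2 at 37.4, 62.1 and 149 RPKM. Ly6c1, a near-identical copy of Ly6c2, was at 37.8, 14.4 and 11.9 RPKM, and the split between them is uncertain. The complement genes of macrophages were low but also highest there, with C1qa at 0.290, 1.28 and 3.47 RPKM and C1qb at 0.222, 1.25 and 3.98 RPKM. The part of mature cells in the myeloid levels of library 3 was not tested.

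Antibody genes were a second group high in library 3. Of 12 plasma cell genes, 9 were highest there, against 32.7% of expressed genes. Of the 10 with a mean of at least 1 RPKM, library 3 stood apart for 6, library 1 for 1 and library 2 for 1. The summed level of the 12 was 154, 157 and 385 RPKM. Igkc, the kappa constant region, was at 75.7, 87.0 and 246 RPKM, and Igha, the IgA heavy chain, at 9.57, 23.7 and 59.3 RPKM. Ighg2b was at 2.09, 5.22 and 22.7 RPKM and Igj, the joining chain, at 3.31, 4.47 and 11.1 RPKM. Ighg3 was at 0.122, 4.07 and 0.0404 RPKM, so that the heavy chain classes differed by mouse. Among plasma cell regulators, Prdm1 was at 0.340, 0.195 and 0.344 RPKM and Tnfrsf17 was at 0, 0 and 0.0492 RPKM. Summed over variable segments, the level was 48.4, 75.6 and 185 RPKM. Reads of immunoglobulin segments can match several copies, and their split between segments is uncertain.

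Promoters of the neutrophil genes are shown because these genes moved together. They are RefSeq sequences on GRCm38.p6, the 250 bases before the start, read 5′ to 3′ on the gene's strand, with motif matches in capitals. The promoter of Cd34, which did not differ by 2-fold, stands beside them. The motifs searched on both strands were AGATAA for GATA factors, GAGGAA for PU.1, TTNNGNAA for C/EBP and TGANTCA for AP-1, and matches may overlap.
Cd34: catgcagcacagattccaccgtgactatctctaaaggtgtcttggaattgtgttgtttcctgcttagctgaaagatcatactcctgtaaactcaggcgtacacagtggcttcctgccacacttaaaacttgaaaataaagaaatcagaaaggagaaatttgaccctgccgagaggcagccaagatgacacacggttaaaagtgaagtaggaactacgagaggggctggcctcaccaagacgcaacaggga
S100a8: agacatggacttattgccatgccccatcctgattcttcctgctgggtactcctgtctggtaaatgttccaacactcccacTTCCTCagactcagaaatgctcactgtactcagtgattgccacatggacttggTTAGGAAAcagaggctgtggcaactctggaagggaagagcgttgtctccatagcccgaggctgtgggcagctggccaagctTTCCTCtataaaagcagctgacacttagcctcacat
Ngp: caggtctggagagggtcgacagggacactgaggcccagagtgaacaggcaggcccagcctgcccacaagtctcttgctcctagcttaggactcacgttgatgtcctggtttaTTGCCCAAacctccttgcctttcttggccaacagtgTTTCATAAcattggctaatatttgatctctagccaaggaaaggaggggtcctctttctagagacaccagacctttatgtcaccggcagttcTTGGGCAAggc
The Cd34 sequence (chr1:194938571-194938820, plus strand) held none of the 4 motifs. S100a8 (chr3:90668821-90669070, plus strand) held a pair of PU.1 matches that begin 170 and 36 bases before the RefSeq start, and a C/EBP match at 117 bases. Ngp (chr9:110419558-110419807, plus strand) held 3 C/EBP matches, at 138, 102 and 11 bases. The RefSeq starts of S100a8 and Ngp lie 93 and 61 bases inside the annotated genes. The PU.1 match at 36 bases and the C/EBP match at 11 bases thus lie inside those genes.

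Of the 21 neutrophil genes, 13 had a RefSeq promoter whose start lay within 500 bases of the annotated gene start. The C/EBP motif was in 10 of these, or 76.9%, against 33.9% of 16781 promoters of the same length. The PU.1 motif was in 8, or 61.5%, against 22.6%. Among 15 matched stem cell factor genes, 6 held the C/EBP motif and 3 the PU.1 motif, or 40% and 20%. A match of letters is a description of the sequence and not evidence of binding.

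Library 1 held more keratinocyte transcripts, and all 3 libraries held many. The 6 lists added for epithelial, skin and splicing genes were chosen after such genes had been seen in these data, so their counts describe and do not support. The other 31 lists were also chosen with earlier results of these data known, and their counts likewise only describe. Krt14, the type I keratin of basal epidermal cells (chr11:100203162-100207548, minus strand), was at 2767, 1164 and 1042 RPKM. It ranked 41 of all genes by its mean, above Cd34 and Kit in every library. Its partner Krt5 was at 410.5, 166 and 155 RPKM. Both are thus among the abundant transcripts of a marrow fraction sorted for blood progenitors. Whether the LSK cells or other cells made the keratinocyte transcripts was not tested.

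Other structural genes of stratified epithelium had the same order. Krtdap, keratinocyte differentiation-associated protein, was at 924, 380 and 347 RPKM. Krt6a was at 385, 149 and 139 RPKM, Krt16 at 314, 125 and 114 RPKM and Krt17 at 306, 124 and 114 RPKM, keratins known from hair follicles and wounded skin. Perp, a desmosome gene, was at 323, 129 and 121 RPKM, and Sfn, which encodes 14-3-3 sigma, at 211, 90.5 and 78.4 RPKM. Krt10, of the layers above the basal one, was at 164, 72.5 and 66.5 RPKM. Keratins 6a and 6b, and 16 and 17, are pairs of related genes, so the split of shared reads within a pair is uncertain.

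In each of these genes library 1 was high and libraries 2 and 3 were close together. Over the 4 epithelial lists, 67 of 73 measured genes were highest in library 1. Of the 57 with a mean of at least 1 RPKM, library 1 stood apart for 37, against 3.41% of expressed genes. Of the 26 at a mean of at least 10 RPKM it stood apart for 24, against 84 of all 5350 coding genes at that level. The other 2 of the 26 were Itga6 and Krt18. Over the 26 genes the median ratio of library 1 to library 2 was 2.45, and of library 3 to library 2 it was 0.919. Over all 5350 coding genes at that level both medians were 1.00.

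Of 10 epithelial transcription factor genes, 8 had a mean of at least 1 RPKM. Klf5 was at 40.9, 17.5 and 17.0 RPKM and Ovol1 at 12.1, 4.99 and 5.17 RPKM. Trp63, the master regulator of stratified epithelium, was at 2.00, 0.689 and 0.941 RPKM. Of 24 cornified envelope and keratinocyte differentiation genes, 19 had a mean of at least 1 RPKM and 12 reached 10. Sprr1a, a small proline-rich envelope protein gene, was at 54.8, 20.8 and 19.1 RPKM, and Lor, loricrin, at 0.0679, 0.1999 and 0.135 RPKM. Other skin cells were hardly represented: none of 15 melanocyte, dermal and hair shaft genes reached a mean of 1 RPKM and 4 were listed at 0 in all libraries. Their summed level was 1.64, 1.86 and 1.33 RPKM, against 7576, 3153 and 2868 RPKM for the 73 epithelial genes. Col1a1, of dermal fibroblasts, was at 0.129, 0.127 and 0.129 RPKM.

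The promoter of Krtdap is shown as the highest epithelial gene with an AP-1 match, and that of Krt5 beside it, in the same form as above.
Krt5: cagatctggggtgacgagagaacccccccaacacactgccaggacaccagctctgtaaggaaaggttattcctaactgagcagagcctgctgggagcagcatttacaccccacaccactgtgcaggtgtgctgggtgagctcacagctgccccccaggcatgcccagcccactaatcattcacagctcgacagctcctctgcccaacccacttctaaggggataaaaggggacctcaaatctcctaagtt
Krtdap: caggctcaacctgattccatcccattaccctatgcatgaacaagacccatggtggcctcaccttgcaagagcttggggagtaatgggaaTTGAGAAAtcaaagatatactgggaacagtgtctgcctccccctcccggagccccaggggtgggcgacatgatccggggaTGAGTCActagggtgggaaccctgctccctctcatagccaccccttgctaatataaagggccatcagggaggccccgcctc
Krt5 (chr15:101712906-101713155, minus strand) held none of the 4 motifs. Krtdap (chr7:30787655-30787904, plus strand) held the AP-1 motif 81 bases and the C/EBP motif 161 bases before the start. Of the 73 epithelial genes, 35 had a matched promoter. The AP-1 motif was in 12 of them, or 34.3%, against 6.19% of all promoters, and in 1 of the 13 neutrophil promoters and 0 of the 15 stem cell factor promoters.

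Between the 3 libraries, Ly6a kept a near-constant ratio to these genes, and Kit and Cd34 did not. Per 1000 RPKM of Krt14 in the same library, Ly6a was at 106, 107 and 115, a ratio of highest to lowest of 1.09. On the same scale Krt5 was at 148, 142 and 149 and Perp at 117, 111 and 116. Kit was at 31.9, 82.0 and 98.4, a ratio of 3.09, and Cd34 at 141, 275 and 383. Ly6d, at 132, 110 and 130 (ratio 1.20), and Atf3, an immediate early gene, at 33.6, 33.4 and 35.0 (ratio 1.05), had ratios like those of the keratinocyte genes. As background, Ly6a and Ly6d are also transcribed in epithelial cells of the skin. The part of such cells in the level of Ly6a was not tested.

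Genes outside the lists had this ratio too. Among 5349 coding genes at a mean of at least 10 RPKM and above 0 in each library, the log2 ratio of library 1 to library 2 had its main peak near 0. Counts fell to 44 genes between 1.0 and 1.2, and 56 lay between 1.2 and 1.4. From 1.0 to 1.6 there were 107 genes, of which 24 were in the epithelial lists, and in 90 library 3 lay within 1.5-fold of library 2. Members outside the lists included Gsto1, a glutathione transferase gene, at 308, 152 and 144 RPKM, the metallothionein gene Mt1 at 191, 86.1 and 90.0 RPKM and Lmna, lamin A, at 57.6, 24.9 and 21.7 RPKM. The epithelial growth factor genes Areg, at 24.6, 9.55 and 8.21 RPKM, and Hbegf, at 49.5, 22.0 and 21.5 RPKM, had it as well. These 5 were chosen after their values were seen.

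**Figure D3:**
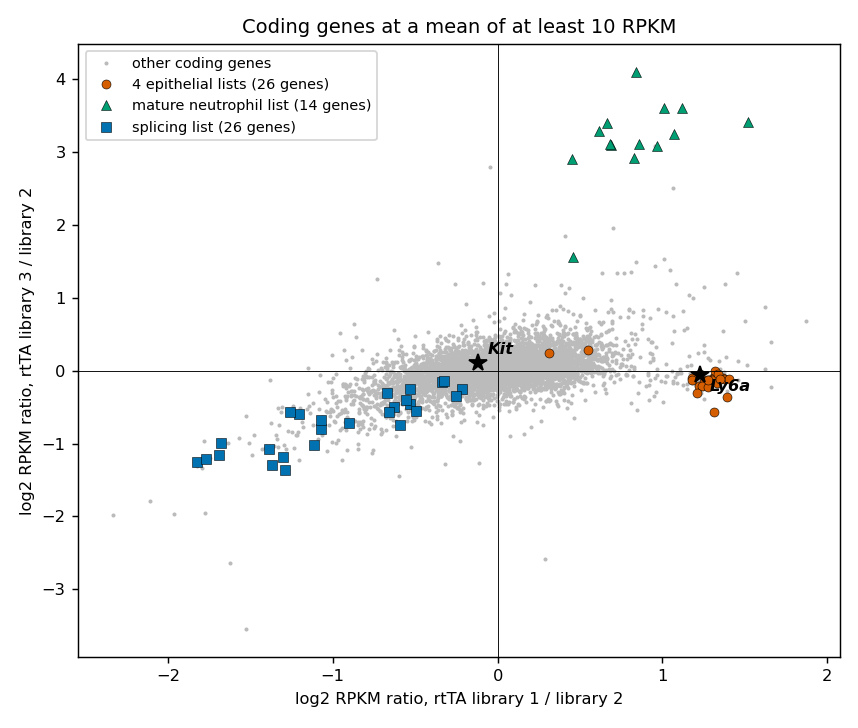
Log2 RPKM ratio of library 1 to library 2 (x axis) against that of library 3 to library 2 (y axis) for coding genes at a mean of at least 10 RPKM, with 3 groups of lists coloured. Epithelial genes gather at the right with Ly6a (star), the 14 neutrophil genes lie high, the splicing genes lie at the lower left, and Kit (star) lies near the centre.

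Small and structural RNA also differed in library 1. It made up 29.3% of that library's summed RPKM, against 17.5% and 17.7% in libraries 2 and 3, and 3.64% of estimated reads against 1.65% and 1.699%. Metazoa_SRP, the signal recognition particle RNA, was at 35482, 14953 and 15639 RPKM, the highest of all genes. A second entry of that name had nearly the same values, at 35463, 14949 and 15638 RPKM. The counting rule is not given, so whether reads of such copies were counted in each is unknown. The shares and ranks of small RNA are therefore uncertain. The part of small and structural RNA in the other values of library 1 was not tested. After values were centred by gene length, the keratinocyte genes at a mean of at least 10 RPKM kept a median ratio of library 1 to library 2 of 2.37. The number of genes for which library 1 stood apart was then 275 in place of 432.

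Library 2 held more transcripts of splicing regulators. All 26 members of that list were highest in library 2, and it stood apart for 7, against 1.56% of expressed genes. Clk1, a kinase of SR proteins, was at 15.4, 40.2 and 19.1 RPKM and Clk4 at 10.1, 24.9 and 10.9 RPKM. Arglu1 was at 45.9, 119 and 48.5 RPKM and Ccnl2, a cyclin linked to splicing, at 11.2, 27.5 and 10.7 RPKM. Among the SR protein genes, Srsf5 was at 60.2, 139 and 92.1 RPKM and Srsf1 at 165, 192 and 160.4 RPKM. Several of these genes are known for transcripts with retained introns, and whole-gene RPKM does not separate those from mature transcripts. Other genes apart in library 2 were Ctse, cathepsin E, at 7.61, 38.3 and 9.70 RPKM, the clock gene Per1 at 5.51, 21.4 and 5.46 RPKM and the chaperone gene Hsph1 at 6.93, 29.9 and 8.64 RPKM.

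**Figure D4:**
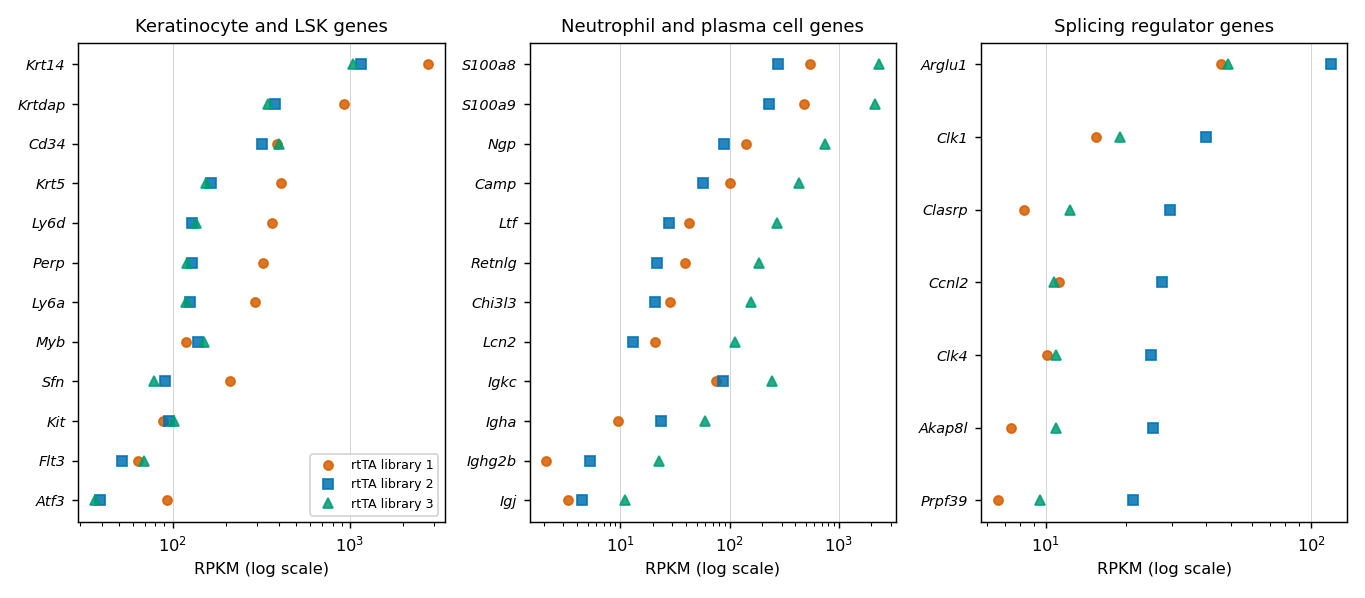
RPKM on a log scale in each of the 3 rtTA libraries for keratinocyte and LSK genes (left), neutrophil and plasma cell genes (middle) and splicing regulator genes (right). Library 1 is to the right for Krt14, Ly6a and Ly6d but not for Kit, library 3 is to the right for every gene of the middle panel, and library 2 for every gene of the right panel.

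The most abundant coding transcripts were those of mitochondria and of translation. The highest were mt-Atp6 with a mean of 10437 ± 2565 RPKM, mt-Co2 with 8433 ± 2128 and mt-Co3 with 7677 ± 1353 (SD, n = 3). Eef1a1, the elongation factor that brings transfer RNA to the ribosome, was the highest nuclear gene at 5844 ± 985 RPKM. Of 95 ribosomal protein genes, 71 were at 100 RPKM or more and 77 of the 90 expressed were highest in library 1, against 32.6% of expressed genes. The 100 highest genes held 53.0%, 41.3% and 43.0% of the summed RPKM in libraries 1 to 3.

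All 18 glycolysis genes were at 1 RPKM or more, led by Pkm, pyruvate kinase, at 470, 362 and 397 RPKM, with Ldha at 281, 223 and 210 RPKM. The widest range among them was that of Eno1, enolase, at 157, 114 and 72.9 RPKM. Of 21 interferon response genes, 20 were expressed. Of these, 3 had a range of 2-fold, or 15%, which is near the 13.4% of expressed genes. Ifitm2 and Ifitm3, membrane proteins that restrict virus entry, were at 320, 276 and 292 RPKM and at 435, 260.2 and 269 RPKM. Mx1, which is known to depend on interferon signalling, was at 0.388, 0.571 and 0.548 RPKM. Interferon signalling itself was not measured, and these values do not stand for it.

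Over all expressed genes the median CV was 16.5%. For coding genes it fell from 23.9% at 1 to 3 RPKM to 11.3% at 30 to 100 RPKM, then was 13.9% at 100 to 300 and 17.7% above 300 RPKM. The CV that counting of reads alone would give had medians of 7.42% in the lowest of these bins and 0.578% in the highest. These medians set counting error beside the spread between separate mice, which also holds the differences between the animals. Without library 1 the median CV was 10.2%. Pearson's r of log2 values was 0.935 between libraries 1 and 2, 0.940 between 1 and 3 and 0.955 between 2 and 3, across 12660 genes, which are not independent replicates.

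**Figure D5:**
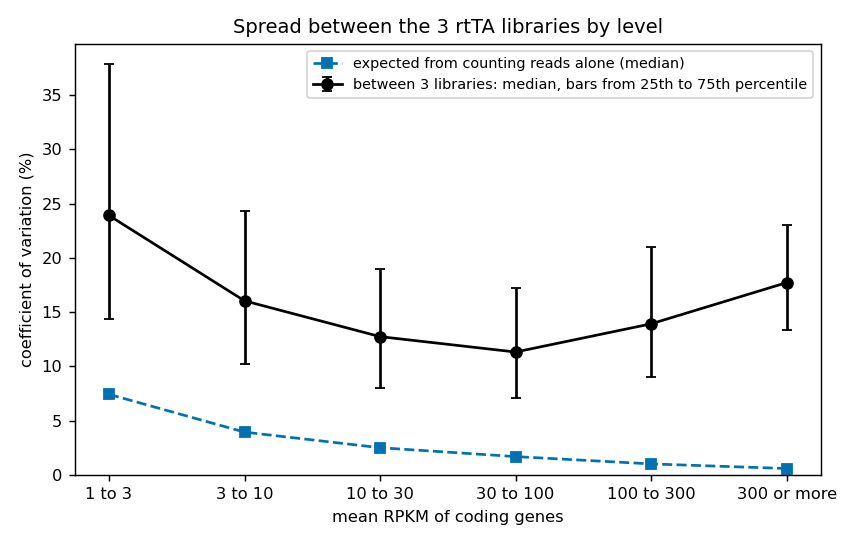
Median coefficient of variation between the 3 rtTA libraries (black, bars from the 25th to the 75th percentile of genes) and the median expected from counting reads alone (blue), for coding genes in 6 ranges of mean RPKM. The black line falls to 11.3% at 30 to 100 RPKM and is 17.7% above 300 RPKM, while the blue line keeps falling.

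The most stable coding genes at 10 RPKM or more were Mad2l1, a gene of the mitotic checkpoint, Ubac1, Cby1, Rars and Ebag9. Mad2l1 was at 43.9, 43.8 and 43.9 RPKM. With 3 libraries and 5350 such genes, a close match in a few is no measure of their stability. Y-linked genes were present in all 3 libraries, with Ddx3y at 11.7, 18.4 and 16.5 RPKM and Eif2s3y at 13.6, 18.4 and 12.8 RPKM.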

How the data were processed

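RNA of LSK cells from 9 mice was sequenced, and the 3 rtTA libraries were used, grouped by their titles. The authors deposited RPKM values for 37882 genes. The submitters' processing notes list STAR, CASAVA 1.7 and the mm10 build, and the counting rule is not given in the sources used here. The molecule is labelled as polyA RNA, while the library kit is a total RNA kit. The submitters' design text states that each replicate was an independent mouse.

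Gene types, positions and exon lengths were matched by identifier to GENCODE M21 on the same build, for 37607 genes. Depth was found as the number of reads for which RPKM values worth up to 20 reads became whole. Between 50.3% and 51.6% of such values were whole within 0.02, against 4% by chance, so depths are approximate and no count test was run. A read at 1 kb was worth 0.0603, 0.0296 and 0.0400 RPKM.

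Levels, SDs, CVs and counts were computed with Python 3.11.15, numpy 2.4.6 and pandas 2.3.3, with a pseudocount of 0.5 for log2 values and a minimum mean of 1 RPKM, and the functions were tested on simulated data. No test was fitted, as there is 1 group. The rtTA group, its members and all gene lists were chosen with earlier results of these data known, and 6 of 37 lists after their own genes were seen. Of 580 list entries 8 were not matched. Named genes were the LSK markers and sort antigens, the 20 highest coding genes, in each list the highest members and those of widest range, the 10 genes most apart in each library, the 5 of lowest CV and all Hox genes at 1 RPKM or more. Others were named for their known role, with their values in view. A few list members are counted in their lists but not reported here by name. RefSeq promoters came from GRCm38.p6, for 16781 genes with a start near that of M21. Alternatives were other minimums, pseudocounts, scalings and gene types, and leaving out each library.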

Additional observations from a re-analysis of the deposited data

How the results depend on the processing

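The 12660 expressed genes numbered 11089 to 14235 under other minimums and 12580 to 12650 without each library in turn. The median CV of 16.5% was 13.2% at a minimum mean of 10 RPKM and 32.3% with no minimum, and ranged from 10.2% (without library 1) to 16.4% without each library. The 1699 genes with a 2-fold range numbered 434 at a minimum of 10 RPKM and 2894 with no minimum, 690 without library 1, 1018 without library 2 and 1228 without library 3, each a comparison of fewer libraries. Genes for which library 1, 2 or 3 stood apart numbered 198, 83 and 99 among coding genes and 173, 36 and 45 at a minimum of 10 RPKM, since fewer genes were counted. Leaving out a library was not run for these counts, which need all 3. After centring by gene length, chosen after the data were seen, they numbered 275, 206 and 184. The share of the 100 highest genes averaged 45.7% of summed RPKM, 37.5% among coding genes, and 42.1% to 48.0% without each library.

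The epithelial ratio of 2.45 was 2.56 with median-ratio scaling, and the neutrophil ratio of 9.06 was 9.01. Rescaling every library to a common total multiplied the list medians by 1.68 to 2.02. That total was larger than the summed RPKM of each library, which was 648864, 467428 and 494456 in libraries 1 to 3. Levels above 0 therefore rose in every library through the change of unit alone. By that change 36 of 37 medians moved by more than their SD, so this count cannot tell whether the levels depend on scaling. Median-ratio scaling moved 0 of 37. No paired analysis was possible because there was 1 group. Depth limits low genes: 1 read at 1 kb was worth 0.0603 RPKM in library 1, so Hoxd and Cd3e values rest on few reads.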
